A study of Mus musculus with 7 samples.

Results

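A list of 10 liver macrophage markers was followed: Clec4f and Timd4 for resident Kupffer cells, Adgre1, Cd68 and Lyz2 for macrophages and myeloid cells in general, Ccr2 for recruited monocytes, and Trem2, Gpnmb, Spp1 and Cd9 for lipid-associated macrophages. These 10 genes were listed by symbol as markers of these cells and found by Ensembl identifier among 51426 genes, of which 14754 had enough counts for a test. All 10 members were among the tested genes. Of the 10 members, Cd9 fell in TET1 KO livers, to 9.07 ± 2.13 CPM (read counts scaled to a common library size; ±S.D., n = 4) from 18.6 ± 2.12 in WT livers (n = 3). It was the 1 member of 10 that passed the edgeR test at an adjusted p under 0.05, where 2.02% of all genes tested passed, and the resident markers Clec4f and Timd4 had fold changes close to 1 with wide intervals. Spp1 stood at the other end of the list, with every TET1 KO liver above every WT liver, as for 11.7% of all genes, but an adjusted p above 0.05.

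Kupffer cells are the macrophages that live in the liver sinusoids and clear particles, lipoproteins and aged blood cells from the portal blood. In fatty liver, resident Kupffer cells can be lost and monocytes that enter through the chemokine receptor CCR2 can take their place. Some macrophages close to lipid-loaded or injured hepatocytes take on a lipid-associated program, marked by the lipid receptor TREM2, the lysosomal glycoprotein GPNMB, the secreted matrix protein osteopontin (Spp1) and the tetraspanin CD9. TET1 oxidises 5-methylcytosine, a step in the removal of DNA methylation.

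The data were bulk liver mRNA counts from male mice of strain C57BL/6J, and each library was 1 liver sample by its label. All mice were fed a high-fat diet (HFD, 60% of calories from fat), started at 8 weeks of age and kept for 16 weeks. The groups were 3 WT livers and 4 livers of the genotype TET-1-TKO, a knockout of Tet1 in the whole body (here TET1 KO). The study writes the sequenced genotypes as TET1wt/wt and TET1-/-, as it does for its constitutive knockout and not for its floxed line crossed to a β-actin Cre, and it bought the knockout as B6;129S4-Tet1tm1.1Jae/J, while the labels give C57BL/6J for every mouse. The deletion was thus present in macrophages, hepatocytes and all other cells, and no chow-fed group was part of these libraries.

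The libraries held 17937630 to 22746138 counts in WT and 15005277 to 21246636 in TET1 KO. Tet1 was at the detection limit in both groups, with 1, 4 and 1 counts in WT replicates 1 to 3 and 2, 1, 4 and 1 counts in TET1 KO replicates 1 to 4. These counts were too few to check the genotype labels. The edgeR quasi-likelihood test with Benjamini-Hochberg adjustment over all 14754 genes called 298 genes at an adjusted p under 0.05 (2.02% of genes tested), of which 129 were higher and 169 lower in TET1 KO. With libraries scaled by their totals alone, 107 were higher and 312 lower. Because whole liver was sequenced, fewer cells of a type and less RNA per cell cannot be told apart in any of these values.

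The 300 bases around the start of 3 members are shown because TET1 acts on methylated CpG sites, and the 3 promoters differ in how many CpG sites they hold. They are Cd9, which fell, Spp1, whose groups did not overlap in the other direction, and the resident marker Clec4f. The sequences are from RefSeq, build GRCm38.p6, from 250 bases before to 50 after the annotated start and read 5′ to 3′ on the strand of the gene, with CpG sites in capitals. The Cd9 window is chr6:125494711-125495010 on the minus strand, that of Spp1 is chr5:104434861-104435160 on the plus strand, and that of Clec4f is chr6:83656067-83656366 on the minus strand.
Cd9: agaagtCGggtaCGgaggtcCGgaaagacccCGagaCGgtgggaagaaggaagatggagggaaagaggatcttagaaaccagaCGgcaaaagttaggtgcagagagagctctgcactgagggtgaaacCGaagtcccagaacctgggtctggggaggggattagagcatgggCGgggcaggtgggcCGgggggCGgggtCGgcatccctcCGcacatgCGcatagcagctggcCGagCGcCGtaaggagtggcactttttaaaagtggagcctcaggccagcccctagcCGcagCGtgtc
Spp1: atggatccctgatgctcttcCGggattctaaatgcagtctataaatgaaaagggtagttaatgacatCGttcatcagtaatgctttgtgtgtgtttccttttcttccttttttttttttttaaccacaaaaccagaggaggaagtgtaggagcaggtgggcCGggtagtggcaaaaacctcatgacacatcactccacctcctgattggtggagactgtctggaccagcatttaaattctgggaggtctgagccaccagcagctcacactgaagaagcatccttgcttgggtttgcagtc
Clec4f: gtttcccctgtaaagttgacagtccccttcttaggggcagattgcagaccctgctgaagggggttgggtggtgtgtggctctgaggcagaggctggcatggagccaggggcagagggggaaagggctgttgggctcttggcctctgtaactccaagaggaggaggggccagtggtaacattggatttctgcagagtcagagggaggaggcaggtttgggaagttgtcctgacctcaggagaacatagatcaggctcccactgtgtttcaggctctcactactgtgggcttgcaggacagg

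The Cd9 window held 18 CpG sites, more than 70.3% of the 32817 mouse promoters of the same length, whose median was 7. The Spp1 window held 3, as did a second annotated Spp1 start, and the Clec4f window held 0, which was so for 5.43% of promoters. Of the other members, Gpnmb had 9, Timd4 and Trem2 had 5 each, Cd68 had 4, and Lyz2 and Ccr2 had 1 each. Adgre1 had no entry. GAGGAA, a core of sites for the macrophage factor PU.1, was searched on both strands and occurred in Cd68 (2 matches), Trem2 (1) and the Spp1 window shown (1), while 28.3% of all promoters held it. CACGTG, the core bound by MITF and TFEB at lysosomal genes, was present in 7.15% of all promoters and in none of the 9 members with an entry. Methylation was not measured in these libraries, and a match of letters is a description only.

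Resident Kupffer cell markers came first. Clec4f (ENSMUSG00000014542, chr6:83644542-83656116, minus strand) encodes a C-type lectin that in the mouse liver is made by Kupffer cells. Clec4f was at 76.3, 70.4 and 117.7 CPM in WT replicates 1 to 3 and at 70.9, 86.8, 70.8 and 129.8 CPM in TET1 KO replicates 1 to 4. The groups overlapped throughout, with WT replicate 3 and TET1 KO replicate 4 standing above the other 5 livers. The means were 88.1 ± 25.8 in WT and 89.6 ± 27.9 in TET1 KO, a log2 fold change of 0.02 (SE 0.24, 95% interval -0.51 to 0.56, edgeR adjusted p = 0.958) that turned to -0.054 with libraries scaled by their totals alone. With 1133 to 2799 counts per library, the interval was set by the spread between livers.

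Timd4 (ENSMUSG00000055546, chr11:46810786-46844333, plus strand) encodes TIM-4, a receptor for phosphatidylserine on dying cells that marks long-lived, embryo-derived Kupffer cells. Its levels were 3.15, 3.90 and 9.38 CPM in the WT livers and 2.82, 8.73, 3.99 and 7.24 CPM in the TET1 KO livers. Both groups held low and high livers, so that the lowest and highest differed about as much within WT as within TET1 KO. The log2 fold change was 0.06 (SE 0.43, 95% interval -0.89 to 1.02, edgeR adjusted p = 0.938), and -0.018 with scaling by library totals. The interval thus held both lower and higher levels in TET1 KO.

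**Figure D1:**
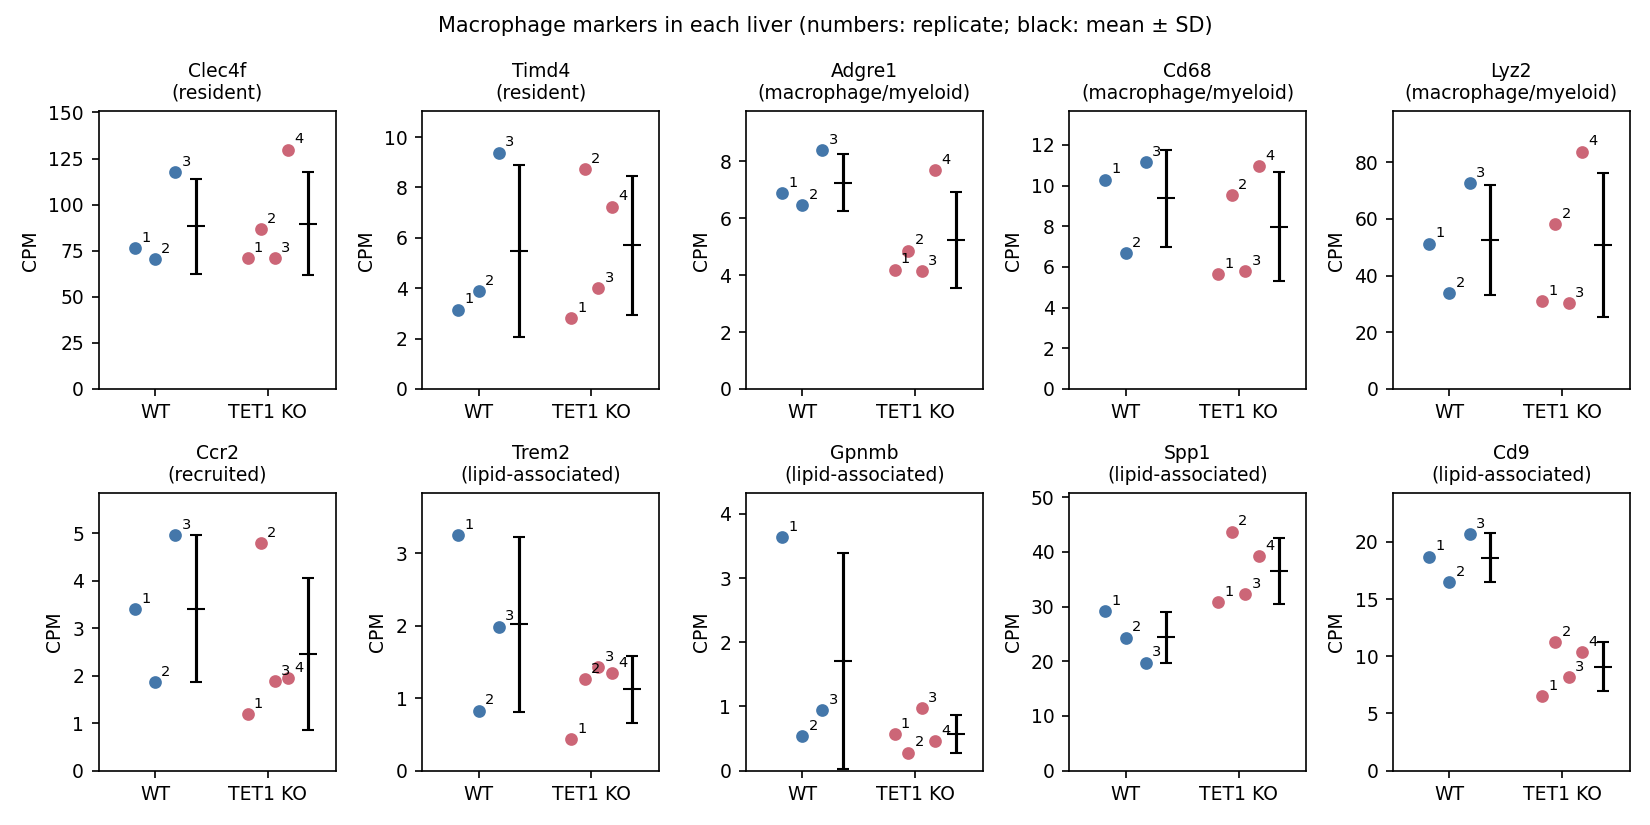
Level of each marker in CPM (vertical axes, TMM-normalized, from 0) in 3 WT and 4 TET1 KO livers. Points are livers with their replicate numbers, and black bars are the mean ± SD. Cd9 and Spp1 are the members whose groups do not overlap, with Cd9 between 16.5 and 20.7 CPM in WT and between 6.51 and 11.2 in TET1 KO.

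Among the general macrophage markers, Adgre1 (ENSMUSG00000004730, chr17:57358581-57483529) encodes F4/80, the adhesion receptor used to identify mouse macrophages. Adgre1 was at 6.89, 6.47 and 8.39 CPM in WT and at 4.20, 4.86, 4.14 and 7.70 CPM in TET1 KO. Of the 4 TET1 KO livers, 3 were below all WT livers, and replicate 4 lay within the WT range. A log2 fold change of -0.46 resulted (SE 0.24, 95% interval -0.99 to 0.06), and the difference did not pass the edgeR test (adjusted p = 0.238). Without TET1 KO replicate 4 the log2 fold change was -0.72 (adjusted p = 0.0575, in a range of 0.0575 to 0.456 over the alternatives).

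Cd68 (ENSMUSG00000018774, chr11:69664213-69666170, minus strand) encodes macrosialin, a glycoprotein of the lysosomes of phagocytes. Its levels were 10.3, 6.67 and 11.2 CPM in WT and 5.64, 9.51, 5.78 and 10.9 CPM in TET1 KO. TET1 KO replicates 1 and 3 were the 2 lowest livers, and the other pair lay within the WT range. Its log2 fold change was -0.23 (SE 0.27, 95% interval -0.83 to 0.37, edgeR adjusted p = 0.609), and it ran from -0.10 without TET1 KO replicate 1 to -0.43 without WT replicate 2.

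Lyz2 (ENSMUSG00000069516, chr10:117277541-117282272, minus strand) encodes lysozyme M, made by macrophages, monocytes and neutrophils. Its values were 51.3, 33.7 and 72.7 CPM in WT and 31.1, 58.2, 30.4 and 83.7 CPM in TET1 KO. The range in TET1 KO enclosed the range in WT. The log2 fold change was -0.05 (SE 0.36, 95% interval -0.83 to 0.74, edgeR adjusted p = 0.944), and reads shared with its close paralog Lyz1 could not be separated from the counts. Of 6 neutrophil markers, 3 were tested and none passed, the other 3 had too few counts, and none was at 0 in every library. The 6 summed to 3.48 to 37.9 CPM in WT and 4.25 to 13.3 CPM in TET1 KO. The upper WT value was that of WT replicate 3, which was also the highest WT liver for Lyz2. The part of neutrophils in the Lyz2 values was not tested.

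The recruited marker Ccr2 (ENSMUSG00000049103, chr9:124101918-124109140, plus strand) encodes the receptor for CCL2 that draws monocytes from the blood. It was low, at 3.40, 1.87 and 4.97 CPM in WT and 1.19, 4.79, 1.89 and 1.95 CPM in TET1 KO. The groups overlapped, with TET1 KO replicate 2 close to the highest WT liver and the other 3 near or below the lowest WT liver. Ccr2 had a log2 fold change of -0.49 (SE 0.45, 95% interval -1.47 to 0.50, edgeR adjusted p = 0.501), which was -0.14 without WT replicate 3, -0.27 without TET1 KO replicate 1, -0.80 without WT replicate 2 and -1.01 without TET1 KO replicate 2, none of them called.

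Of the 4 lipid-associated markers, 1 fell and the other 3 did not pass the test, with log2 fold changes below 0 for Trem2, Gpnmb and Cd9 and above 0 for Spp1. Cd9 (ENSMUSG00000030342, chr6:125460266-125494760, minus strand) encodes a tetraspanin of the plasma membrane and of extracellular vesicles, which many cell types express. Cd9 was at 18.7, 16.5 and 20.7 CPM in WT (380, 397 and 375 counts) and at 6.51, 11.2, 8.18 and 10.4 CPM in TET1 KO (104, 159, 160 and 224 counts). All 4 TET1 KO livers were below all 3 WT livers, as for 10.8% of all genes tested. Cd9 fell by 1.04 on the log2 scale (SE 0.19, 95% interval -1.46 to -0.61, edgeR adjusted p = 0.0259), so WT exceeded TET1 KO 2.05-fold, and it ranked 135 among all tested genes by p. The call was lost when WT replicate 1, 2 or 3 or TET1 KO replicate 3 was left out (adjusted p = 0.0516, 0.0905, 0.0633 and 0.0824), while the log2 fold change stayed between -1.16 and -0.91 with each liver left out in turn.

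Cd9 is also expressed outside macrophages, for example by endothelial and epithelial cells. None of the 6 sinusoidal endothelial markers (6 tested), the 6 stellate cell markers (6 tested) or the 6 cholangiocyte markers (4 tested) passed the edgeR test, and none was at 0 in every library. Their summed levels were 201 to 209 CPM in WT and 178 to 221 CPM in TET1 KO for endothelium, 198 to 304 and 187 to 265 CPM for stellate cells, and 6.55 to 9.99 and 15.5 to 24.3 CPM for cholangiocytes. Within the cholangiocyte sum, Sox9, singled out after its values were seen, was 4.15 to 8.06 CPM in WT and 9.46 to 20.9 CPM in TET1 KO. The median log2 fold change was -0.05 for the endothelial list (2 above and 4 below 0) and -0.10 for the stellate list (1 above and 5 below 0). Within these lists, the endothelial gene Lyve1 (log2 fold change -1.08, SE 0.30, edgeR adjusted p = 0.0778) and the stellate collagen gene Col1a1 (-0.96, SE 0.29, edgeR adjusted p = 0.0874), both singled out after their values were seen, lay on the same side of 0 as Cd9. The groups overlapped for both of these genes, unlike for Cd9. Which cells the Cd9 reads came from was not tested.

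Spp1 (ENSMUSG00000029304, chr5:104435111-104441053, plus strand) encodes osteopontin, a secreted ligand of integrins and CD44. Its levels were 29.1, 24.3 and 19.8 CPM in WT and 30.7, 43.7, 32.3 and 39.1 CPM in TET1 KO, so the groups did not overlap. The means were 24.4 ± 4.67 and 36.5 ± 6.03 CPM. The log2 fold change was 0.58 (SE 0.17, 95% interval 0.19 to 0.96) with an unadjusted p of 0.00693 and an adjusted p of 0.0860 in edgeR, which did not pass. DESeq2 gave an adjusted p of 0.0541, within a range of 0.0541 to 0.310 over the alternatives.

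Spp1 is also made by bile duct cells. The 4 tested cholangiocyte markers, Krt19, Krt7, Epcam and Sox9, all had positive log2 fold changes with a median of 1.35, none passed the edgeR test, and Cftr and Cldn4 had too few counts to be tested. Sox9, a factor of bile duct cells singled out after its values were seen, was at 6.50, 4.15 and 8.06 CPM in WT and 12.7, 20.9, 14.9 and 9.46 CPM in TET1 KO (log2 fold change 1.22, SE 0.29, edgeR adjusted p = 0.0569). Krt19, Krt7 and Epcam were highest in TET1 KO replicate 4. Without that liver, left out after the data were seen, the median of the 4 was 0.67, with log2 fold changes of 0.43 for Krt19, 0.46 for Krt7, 0.89 for Epcam and 1.38 for Sox9, which then passed the edgeR test (adjusted p = 0.0259). The share of Spp1 that came from bile duct cells was not tested.

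Trem2 (ENSMUSG00000023992, chr17:48346401-48352276, plus strand) encodes a receptor for lipids and lipoproteins that signals through the adaptor DAP12. It was at 3.25, 0.829 and 1.99 CPM in WT and 0.438, 1.27, 1.43 and 1.35 CPM in TET1 KO, from 66, 20 and 36 counts and from 7, 18, 28 and 29 counts. WT replicate 1 was the highest liver and TET1 KO replicate 1 the lowest, with the other 5 overlapping. For Trem2 the log2 fold change was -0.81 (SE 0.47, 95% interval -1.85 to 0.23, edgeR adjusted p = 0.287), and without WT replicate 1 it was -0.28 (adjusted p = 0.731, in a range of 0.235 to 0.731 over the alternatives).

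Gpnmb (ENSMUSG00000029816, chr6:49036518-49058182, plus strand) encodes a transmembrane glycoprotein that rises in macrophages with lysosomal stress. Its levels were 3.64, 0.539 and 0.938 CPM in WT and 0.564, 0.282, 0.972 and 0.464 CPM in TET1 KO, from 74, 13 and 17 counts and from 9, 4, 19 and 10 counts. WT replicate 1 stood far above every other liver, and the remaining 6 livers overlapped. Gpnmb had a log2 fold change of -1.53 (SE 0.64, 95% interval -2.94 to -0.11) with an unadjusted p of 0.0368 and an edgeR adjusted p of 0.164. Without WT replicate 1 it was -0.32 (adjusted p = 0.721, in a range of 0.110 to 0.721 over the alternatives), so the size of this difference rested on that liver.

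**Figure D2:**
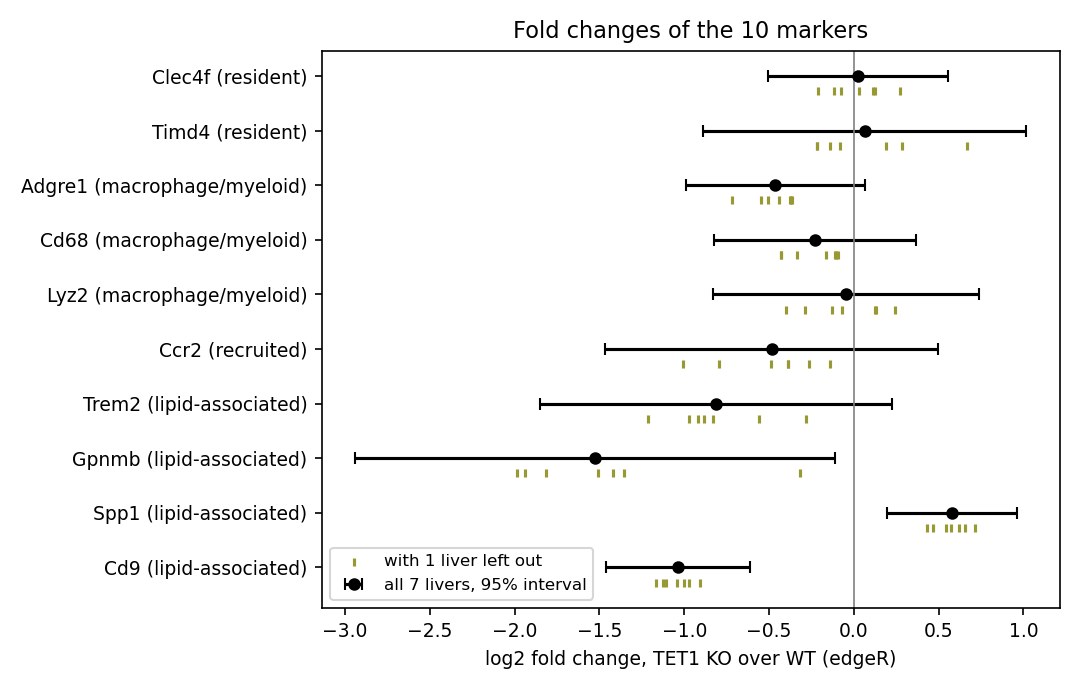
Log2 fold change of each marker, TET1 KO over WT (horizontal axis, edgeR), with its 95% interval from all 7 livers (black) and the values with 1 liver left out (olive ticks). The Cd9 interval lies below 0 (-1.46 to -0.61) and that of Spp1 above it (0.19 to 0.96), the Gpnmb interval ends near 0 and its ticks reach -0.32, and Clec4f, Timd4 and Lyz2 change sign when a liver is left out, as Clec4f and Timd4 also do when libraries are scaled by their totals.

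Counted over the list, 7 of the 10 members had a negative log2 fold change and 3 a positive one, and the median was -0.35, against 48.9% negative and a median of 0.01 over all genes tested. Clec4f and Timd4 are 2 of the 3 positive ones and turned negative with scaling by library totals. The groups did not overlap for 2 members, as for 22.5% of all genes, and 3 members had an unadjusted p under 0.05, as had 26.3% of all genes. By the adjusted p, 1 member was called, lower in TET1 KO, where 1.15% of all genes were called lower and 0.874% higher. The counts of members without overlap and with an unadjusted p under 0.05 were thus close to the background of all genes.

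The resident and lipid-associated markers were compared within each liver as the mean log2 CPM of Trem2, Gpnmb, Spp1 and Cd9 minus that of Clec4f and Timd4, set to 0 at the WT mean. The difference was 1.04, -0.26 and -0.78 in the WT livers and -0.47, -0.95, -0.06 and -1.02 in the TET1 KO livers. All TET1 KO livers lay below 0, but WT replicates 2 and 3 did as well, and the groups overlapped. TET1 KO was lower than WT by a log2 value of -0.63, beside an S.D. of 0.936 in WT and 0.449 in TET1 KO, and no test was made of this score. Without WT replicate 1 the difference was -0.11, and without WT replicate 3 it was -1.01.

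**Figure D3:**
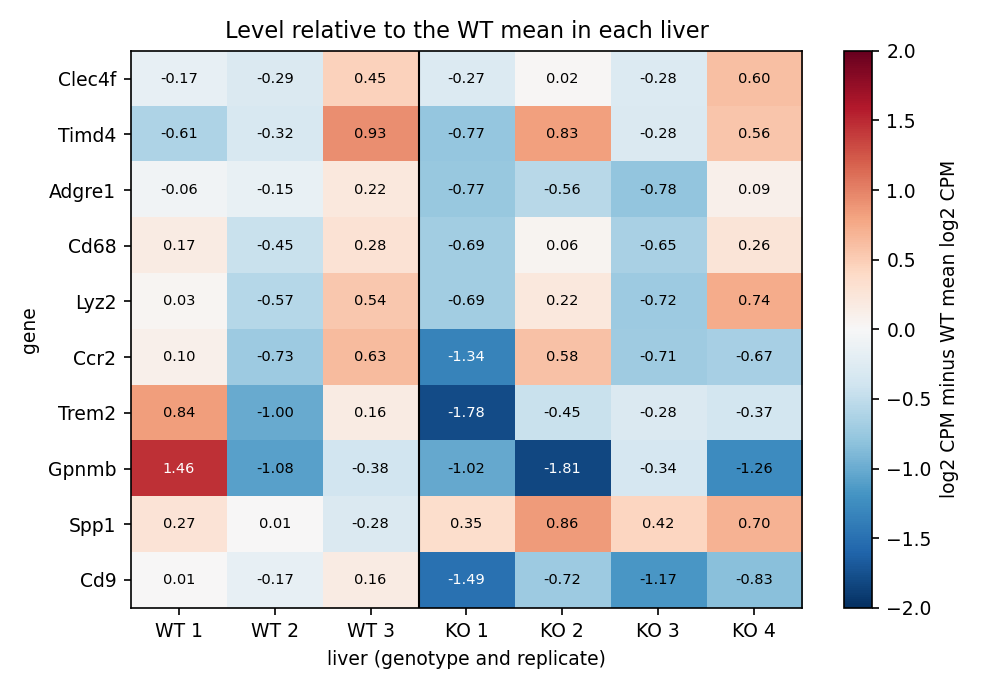
Log2 CPM of each marker minus its mean log2 CPM over the WT livers (colour and printed value), by gene (rows) and liver (columns, genotype and replicate). Spp1 and Cd9 are the rows whose genotypes separate, Gpnmb and Trem2 are highest in WT replicate 1, and Clec4f, Adgre1, Cd68 and Lyz2 each have their highest WT value in replicate 3 and their highest TET1 KO value in replicate 4.

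Of the 10 members, 7 were highest in WT replicate 3 or TET1 KO replicate 4, as were 18.2% of all genes, and 7 were lowest in TET1 KO replicate 1 or 3, as were 35.0% of all genes. These livers were picked after the values were seen, and both counts include Cd9, whose groups separated by genotype. Likeness was measured as the root mean square difference of standardised log2 CPM over the 7 livers, in units of S.D., where 0 is an identical pattern, 1.41 an uncorrelated one and 2 the opposite one. The closest pairs were Cd68 and Lyz2 (0.304) and Clec4f and Lyz2 (0.386). Spp1 was at least 1.33 from every other member, with the largest distance to Cd9 (1.78) and the next to Adgre1 (1.70). Gpnmb was at 1.70 from Timd4, 1.55 from Clec4f, 1.45 from Lyz2, 1.29 from Cd68 and 1.22 from Adgre1. It was at 1.67 from Spp1 and 1.3 from Ccr2, and closest to Cd9 (1.05) and Trem2 (0.79). The points share libraries and scaling, and so these distances are a description.

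Counts were also set against the Clec4f count of the same liver, a ratio that needs no library scaling. Cd9 had 24.5, 23.4 and 17.6 counts per 100 Clec4f counts in WT and 9.18, 12.9, 11.6 and 8.0 in TET1 KO. Adgre1 had 9.03, 9.19 and 7.13 in WT and 5.91, 5.60, 5.85 and 5.93 in TET1 KO, means of 8.45 ± 1.15 and 5.82 ± 0.153. For both, all TET1 KO livers lay below all WT livers, and the 4 TET1 KO ratios of Adgre1 were closely grouped although the Adgre1 level itself overlapped between groups.

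Spp1 ratios overlapped between groups, at 38.1, 34.6 and 16.8 in WT and 43.3, 50.3, 45.6 and 30.2 in TET1 KO. Those of Trem2 were 4.26, 1.18 and 1.69 in WT and 0.618, 1.46, 2.02 and 1.04 in TET1 KO, and those of Gpnmb were 4.77, 0.766 and 0.797 in WT and 0.794, 0.325, 1.37 and 0.357 in TET1 KO. For Trem2 and Gpnmb, WT replicate 1 alone lay above the TET1 KO range. Of the 9 ratios to Clec4f, 2 did not overlap between groups, where 4.78% of 14753 genes had such a ratio, and no test was made. Genes whose levels follow Clec4f from liver to liver have steadier ratios than other genes, so that share is not a like background for macrophage markers. Cd9 is expressed outside macrophages, so its ratio to Clec4f is not a level per Kupffer cell.

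**Figure D4:**
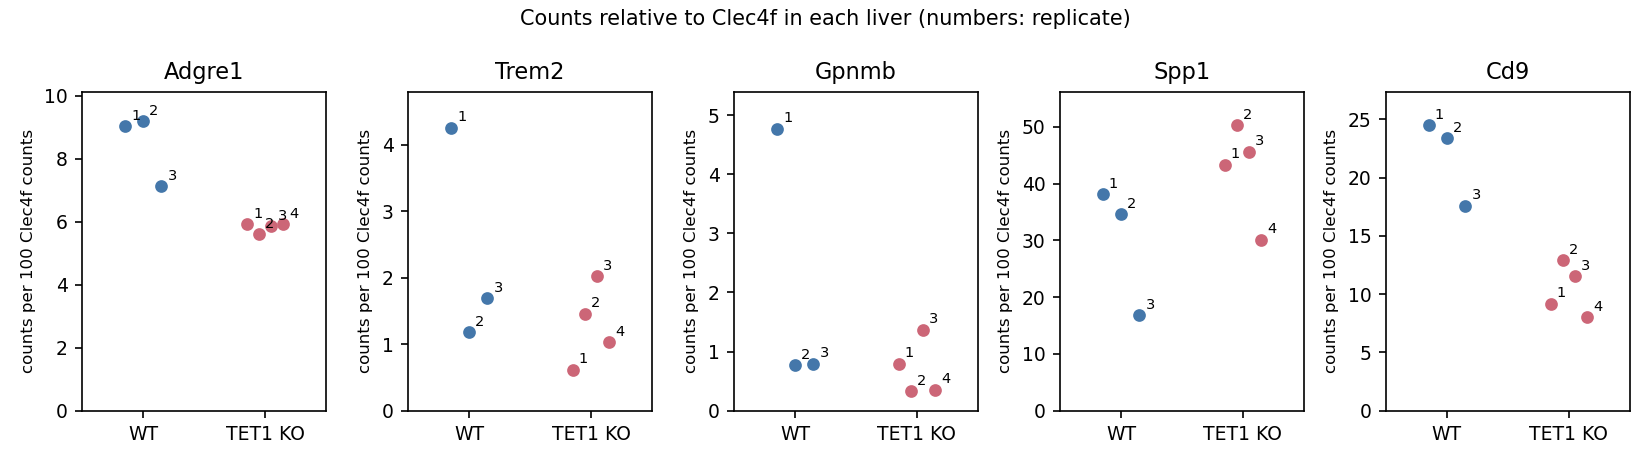
Counts per 100 Clec4f counts (vertical axes, from 0) for Adgre1 and the 4 lipid-associated markers in 3 WT and 4 TET1 KO livers, with replicate numbers beside the points. Adgre1 (7.13 to 9.19 in WT, 5.60 to 5.93 in TET1 KO) and Cd9 separate by genotype, and Spp1, Trem2 and Gpnmb overlap.

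Further genes of the same cells were counted from lists of 60 genes, of which 55 were tested and 1 was called, lower in TET1 KO (1.15% of all genes were called lower), while 8 had an unadjusted p under 0.05, a share below the 26.3% of all genes. The called gene was Lipa, which encodes lysosomal acid lipase, the enzyme that splits cholesteryl esters and triglycerides in lysosomes of macrophages and of hepatocytes. Lipa was at 151.4, 211.3 and 142.7 CPM in WT and 71.9, 89.3, 80.1 and 108.6 CPM in TET1 KO. Every TET1 KO liver was below every WT liver, as for 10.8% of all genes tested. Lipa fell by 0.95 on the log2 scale (SE 0.18, edgeR adjusted p = 0.0280), and the call was lost without WT replicate 2 or TET1 KO replicate 1, 2 or 3 (adjusted p = 0.142, 0.0506, 0.0713 and 0.0945), while the log2 fold change stayed between -1.07 and -0.76 with each liver left out in turn.

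Lipa belonged to the other lipid-associated macrophage genes, of which 13 of 14 were tested (Syngr1 was not), with 3 log2 fold changes above 0, 10 below and a median of -0.21. Mmp12, a macrophage elastase singled out after its values were seen, was at 3.94, 0.995 and 0.993 CPM in WT and 0.188, 0.704, 0.921 and 0.464 CPM in TET1 KO. As for Trem2 and Gpnmb, WT replicate 1 was the highest liver, and the edgeR adjusted p was 0.103 (log2 fold change -1.77, SE 0.59). Fabp5, a fatty acid binding protein also singled out after its values were seen, had a log2 fold change of 1.28 (SE 0.41, edgeR adjusted p = 0.0956), on the other side of 0 from Lipa and Mmp12. DESeq2 called 4 of the 55 genes, Lipa and Mmp12 lower and C6 and Fabp5 higher, where it called 9.02% of 14701 genes.

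All 12 other Kupffer cell genes were tested, 8 above and 4 below 0 with a median log2 fold change of 0.22, and none passed the edgeR test. C6, a complement component of the membrane attack complex also made by hepatocytes, was at 46.7, 50.0 and 122.7 CPM in WT and 170.7, 158.5, 145.9 and 116.1 CPM in TET1 KO. The groups overlapped through WT replicate 3, and the log2 fold change was 1.02 (SE 0.31, edgeR adjusted p = 0.0874). Without WT replicate 3 it was 1.59 and C6 was called (adjusted p = 0.00388, in a range of 0.00388 to 0.342 over the alternatives). Nr1h3, the oxysterol receptor LXRα that maintains Kupffer cell identity and is also active in hepatocytes, had a log2 fold change of 0.25 (SE 0.11, edgeR adjusted p = 0.192).

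None of the 14 other macrophage genes passed the edgeR test, with 6 above and 8 below 0 and a median of -0.07. The smallest p values belonged to Ctss, a lysosomal cysteine protease (log2 fold change -0.44, SE 0.29, edgeR adjusted p = 0.350), and Aif1, the actin-binding protein IBA1 (0.41, SE 0.33, edgeR adjusted p = 0.437). With 1 liver left out, Ctss ran from -0.67 (without TET1 KO replicate 4) to -0.26 (without WT replicate 3) and Aif1 from 0.12 (without WT replicate 2) to 0.73 (without WT replicate 3). Of 6 other recruited monocyte genes, 5 were tested (Chil3 was not), 1 above and 4 below 0 with a median of -0.48. Ly6c2, a surface marker of classical monocytes, was at most 1.44 CPM in any liver, with a log2 fold change of -1.02 (SE 0.51) and an edgeR adjusted p of 0.224.

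The ligands, adaptors and receptors that work with the members were 14 genes, 11 of them tested (Hcst, Ccl7 and Ccl12 were not), and none passed. Their median log2 fold change was -0.02. Itgb1 and Itgav, which encode integrin chains, had log2 fold changes of -0.40 (SE 0.14) and -0.35 (SE 0.13) with edgeR adjusted p of 0.123 and 0.135. Tyrobp, the DAP12 adaptor of TREM2, was singled out for its role and was at 16.3, 9.20 and 16.9 CPM in WT and 11.5, 16.2, 11.4 and 16.6 CPM in TET1 KO. Its groups overlapped (log2 fold change -0.02, SE 0.23, edgeR adjusted p = 0.960).

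**Figure D5:**
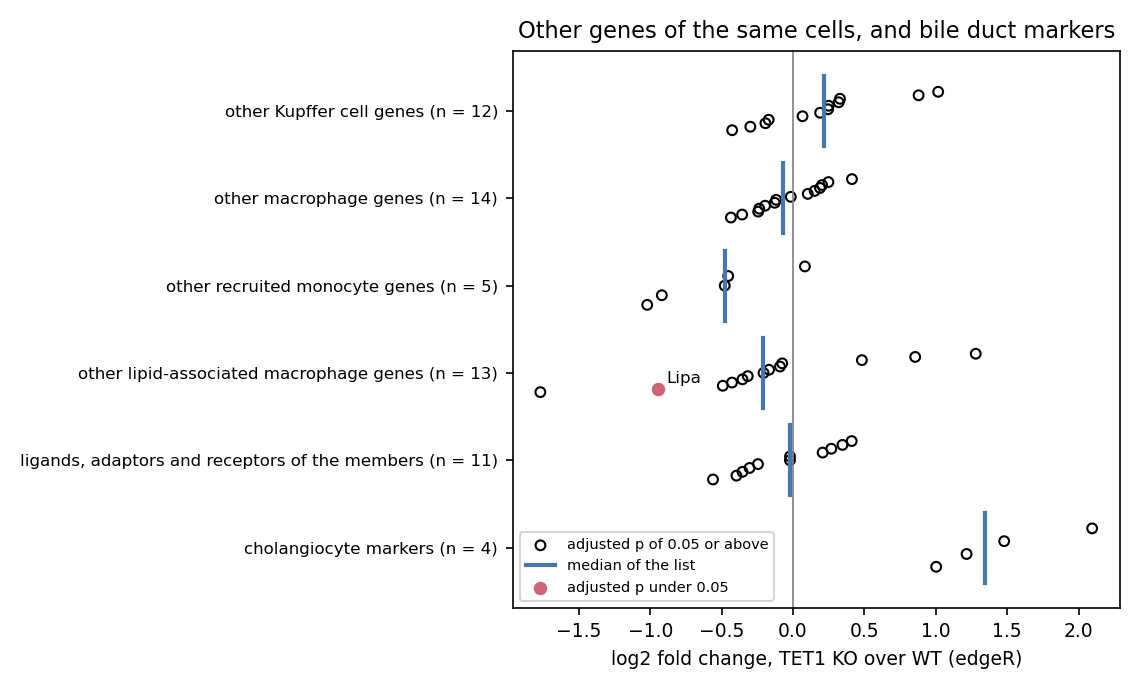
Log2 fold change, TET1 KO over WT (horizontal axis, edgeR), of each tested gene (points) in 5 lists of macrophage genes and their partners and in the cholangiocyte list, with the median of each list as a bar. Lipa is the filled point, the gene with an adjusted p under 0.05. The list medians run from -0.48 for recruited monocyte genes to 0.22 for Kupffer cell genes, with 1.35 for the 4 cholangiocyte markers.

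Markers of other liver cells were examined beside these results, and of 51 such genes in 9 lists 40 were tested and none passed the edgeR test (2.02% of all genes did), while 8 had an unadjusted p under 0.05 (26.3% of all genes). Apart from the lists already given, summed levels were 62640 to 83760 CPM in WT and 74890 to 84330 CPM in TET1 KO for hepatocytes, 1.82 to 3.48 and 2.20 to 4.51 CPM for T and NK cells, and 7.55 to 15.2 and 9.46 to 27.7 CPM for B cells. Dendritic cell markers summed to 9.99 to 12.9 CPM in WT and 13.8 to 17.2 CPM in TET1 KO, and red blood cell markers to 565 to 606 and 156 to 786 CPM. The upper TET1 KO value for red blood cells was that of replicate 4. All 4 red blood cell markers had log2 fold changes below 0, and all 5 B cell and all 3 tested dendritic cell markers had values above 0. No listed gene was at 0 in every library, and the part of these cells in the marker levels was not tested.

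Levels were compared between members as CPM per kilobase of exon, over all 7 livers. Lyz2 and Clec4f were the most abundant, at 39.3 ± 16.2 and 36.01 ± 9.99, and their ranges overlapped. Spp1 followed at 19.0 ± 4.97, with its highest liver (26.5) below the lowest Clec4f value (28.5) but above the lowest Lyz2 value (23.1), and then Cd68 at 6.82 ± 1.95 and Cd9 at 6.44 ± 2.67, which overlapped and whose order differed by genotype, with means of 7.45 and 9.11 in WT and 6.34 and 4.44 in TET1 KO. Timd4 (2.58 ± 1.28) and Adgre1 (1.88 ± 0.527) overlapped as well. Ccr2 (0.448 ± 0.239), Trem2 (0.305 ± 0.184) and Gpnmb (0.229 ± 0.253) were lowest and could not be ordered beyond their spread. On this scale the recruited marker and 2 of the 4 lipid-associated markers were thus the lowest members. The lengths joined all annotated exons of a gene, 4946 bases for Trem2 and 6393 for Ccr2. Values are too low where a shorter transcript is the one made, so this order depends on the lengths used.

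The genes whose pattern over the 7 livers was nearest were sought among 13196 genes with a mean of at least 1 CPM, by the same root mean square difference. For Clec4f they included Dock2 (0.206) and Mthfd2 (0.269), and for Timd4 they were Fgl1 (0.231), Wfdc21 (0.231) and Slc37a1 (0.246). For Trem2 they were Icam2 (0.202), Vapa (0.239) and Gm5425 (0.259), and for Gpnmb Thbs1 (0.237), Gm20075 (0.244) and Igfbp7 (0.349). None of these genes passed the edgeR test. Nearest to Spp1 were Fdft1 (0.233), Dnajc7 (0.283) and Gm8225 (0.322), and nearest to Cd9 were Ptbp1 (0.143), Fkbp7 (0.147) and Mmd2 (0.194). Of these 6, Mmd2 passed the edgeR test, at a log2 fold change of -2.11 (adjusted p = 0.00743).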

How the data were processed

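Liver mRNA from 3 WT and 4 TET1 KO mice was analysed, grouped by the sample labels. The authors deposited 1 table of raw read counts per liver, not normalized. Their processing notes name Trimmomatic 0.36, GSNAP, featureCounts 1.5.3 and build GRCm38. The kit marks strand, but whether counting used it is not given in the sources used here, so overlapping, antisense and paralogous genes are uncertain. Tables were joined by Ensembl identifier, since 26 symbols differed between tables, and 5 repeated entries of 51431 were left out. Of the 51426 genes joined, 24623 had a count.

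Counts were analysed with edgeR 4.0.16 in R 4.3.3: filterByExpr, TMM scaling, glmQLFit and glmQLFTest without covariates, and Benjamini-Hochberg adjustment over 14754 genes, called under 0.05. Filtered genes kept at least 99.881% of counts. The biological coefficient of variation was 0.208. CPM were scaled by TMM, with a prior count of 2 on the log2 scale. Intervals of log2 fold changes are 95%. Within a group, the labels tell the mice apart only by a replicate number, and p-values measure the spread between these samples. Libraries of a group differed by more than sampling noise (chi-square per degree of freedom at least 25.0). Exon lengths joined all exons of the GENCODE M1 gene models on NCBIM37, matched by identifier. Coordinates and promoters are from RefSeq GRCm38.p6, and 9 of 10 members had a promoter entry.

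On simulated counts, edgeR recovered 64 of 100 genes changed 2-fold and 96 of 100 changed 4-fold with 11 false calls among 14509 genes, and DESeq2 1.42.0 recovered 74 and 97 with 33 false calls among 14754. Alternatives were DESeq2, RLE or library-size scaling, no filter, a minimum of 10 counts in each library, robust dispersions, a replicate block, a log2 fold change limit of -3 to 3, and leaving out each liver. Replicate numbers did not pair the livers (r = 0.21, -0.12 and -0.10 for equal numbers).

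The members and lists were chosen with earlier results of these data known. The genes named are the 10 members, called genes of the 5 other macrophage lists or, where none was called, the 2 with the smallest p, Tet1, and the 3 nearest genes of 6 members. Of the genes this rule names, 2 are not reported here. Names outside this rule are said to be singled out, except Krt19, Krt7, Epcam, Cftr and Cldn4 and the untested genes, which were named to account for their lists. The score of lipid-associated minus resident markers was given no test.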

Additional observations from a re-analysis of the deposited data

Results flagged for a closer look

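Among the 4 TET1 KO livers only, 38 measures were examined for a single liver far from its group (19 named genes, 18 marker lists and the library total). Markers of other cell types entered as lists, so Krt19 and Epcam, highest in TET1 KO replicate 4, were not examined singly. Of the 38, 1 was set apart, Trem2, where replicate 1 was at 0.438 CPM and the nearest other liver at 1.27. The gap was 0.835 of the group's range, against a critical value of 0.829 for 4 samples. Chance sets apart about 1 group in 20, or 1.9 of 38, and replicate 1 held 7 Trem2 counts.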

How the results depend on the processing

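Of the alternatives, 298 calls over all genes became 1326 with DESeq2, 592 without a filter, 1326 with a replicate block and 38 to 891 with 1 liver left out (38 without WT replicate 2, 187, 104, 79 and 891 without TET1 KO replicates 1 to 4). The equal replicate numbers are only names here. The block left 1 member called (Cd9) and called 2 genes of the other macrophage lists (Lipa and C6), where 1 was called without it. Members called numbered 0 to 1 with 1 liver left out, 0 without WT replicate 1, 2 or 3 or TET1 KO replicate 3. In the other macrophage lists 1 call became 4 with DESeq2 and 0 to 2 with 1 liver left out, 0 without WT replicate 2 or TET1 KO replicate 1, 2 or 3 and 2 (Lipa and C6) without WT replicate 3. The replicate block moved Adgre1 to -0.72. TET1 KO replicate 4 had no WT liver of the same number, so within the block it did not bear on the genotype difference. Without that liver Adgre1 was also at -0.72. Library-size scaling called 419 genes and moved the median log2 fold change of all genes from 0.01 to -0.08. The cause of these shifts was not tested.

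The log2 fold change of Clec4f was -0.054 with library-size scaling and -0.18 with the replicate block and ran from -0.21 to 0.27 with 1 liver left out. That of Timd4 was -0.018 and -0.076 and ran from -0.22 to 0.66, and that of Lyz2 ran from -0.40 to 0.24. The lipid-associated minus resident difference ran from -1.01 to -0.11 with 1 liver left out, and was -1.01 without Spp1 and -0.47 without Cd9. Cd9 stayed under an adjusted p of 0.05 in 10 of 14 alternatives and negative in all 14. With at least 10 counts in every library, Trem2, Gpnmb and Ly6c2 were among the genes that dropped out. Over the 19 named genes, 237 alternative values kept their direction and side of the threshold, 14 changed sign, 8 lost a call and 3 gained one. Counts of 4 to 74 limit Gpnmb and 7 to 66 limit Trem2.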
